A study of Mus musculus with 4 samples.

Results

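Serum amyloid A genes (Saa1, Saa2 and Saa3), the acute phase genes Lcn2, Hp, Orm1, Cp and Ptx3, and the secreted-protein genes Chil1 and Bpifb1 were followed in articular cartilage of young and adult mice 3 days after injury. The 10 genes were taken by their symbols from a table of 24532 genes, of which 18181 were above 0 in at least 1 library. They had been chosen with values in view, because Chil1, Bpifb1, Saa1 and Lcn2 reached higher levels in injured cartilage of adult than of young mice, so that contrast is described here and supports nothing. Gene levels are FPKM, the fragments of a gene divided by the length of the gene and by the mapped fragments of its library, and can be compared between genes.

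RNA sequencing covered 4 groups of C57BL/6 wild-type mice, namely sham-operated and injured mice of a young and of an adult age. Young mice were 3 weeks of age, whereas the age of adult mice is 12 weeks in the sample titles, 14 weeks in another label and 10 weeks in the methods. The labels call the surgery DMM (destabilization of the medial meniscus), whereas the methods describe a full-thickness cartilage injury (FTCI) made in the patellar groove, and the injury is called FTCI here. Injured cartilage was from day 3, while the label of the adult sham library spans day 3 to day 14. Each group was 1 library made from pooled mice, so that no difference below has a replicate check and no SD or p-value can be given. The labels name chondrocytes as the cell type, and Col2a1, the main collagen gene of cartilage, was at 3173 to 9349 FPKM. All 4 libraries also held RNA of marker genes of neutrophils, macrophages, fibroblasts and endothelium, given with their values further on. In such bulk tissue, fewer cells of a type and less RNA per cell cannot be told apart.

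Acute phase proteins are secreted in large amounts when interleukin-6, interleukin-1 and related cytokines act on the liver through the transcription factors STAT3, C/EBP and NF-kB. Several of them are also made outside the liver, by macrophages, neutrophils, epithelium and connective tissue cells at an inflamed site. Chil1 encodes a chitinase-like protein without enzyme activity, whose human counterpart was described as a glycoprotein secreted by cartilage and synovial cells, and Bpifb1 encodes a secreted lipid-binding protein best known from the airway.

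Saa1 and Saa2 lie next to each other on chromosome 7, in opposite directions, and are near-copies, which bears on every value given for them. The coding sequences in the GENCODE M21 transcripts were 369 bases each and differed at 18 bases (95.1% identical), whereas Saa1 and Saa3 differed at 99 bases (73.2% identical). Of the 31-base words of the transcript, 30.1% in Saa1, 27.3% in Saa2 and 5.71% in Saa3 also occurred in another gene, but no 100-base word did, 100 bases being the read length. Coding bases 1 to 150 of both genes are shown, because a read can be assigned to one of them only where they differ, and capitals mark the 11 differing bases.
Saa1: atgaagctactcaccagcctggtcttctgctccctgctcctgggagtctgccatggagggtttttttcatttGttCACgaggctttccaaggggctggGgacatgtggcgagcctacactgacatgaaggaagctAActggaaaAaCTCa
Saa2: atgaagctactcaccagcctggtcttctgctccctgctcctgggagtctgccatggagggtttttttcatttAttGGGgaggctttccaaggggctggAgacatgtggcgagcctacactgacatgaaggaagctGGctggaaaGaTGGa
Because of this likeness, Saa1 and Saa2 are given singly and as a sum. The RefSeq gene table also lists each of the 2 names as a synonym of the other, so that only the identifiers (Saa1, Entrez 20208; Saa2, Entrez 20209) fix which gene a row is. Among the other genes, Orm1 shared 27.5% of its 31-base words with Orm2, Orm3 and Gm11212, and 6.95% of its 100-base words with Orm2, and its values are uncertain for that reason.

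Upstream sequence was taken from RefSeq (GRCm38.p6) for 8 of the 10 genes in 10 windows of 250 bases, 2 each for Bpifb1 and Cp, with no entry for Hp and Orm1. The stretch from 250 to 51 bases before the start that the window table gives is shown for the Saa genes, Chil1 and Bpifb1, since the largest differences below concern these genes. For Saa1 (46742980) and Saa3 (46715676) that start lies inside the RefSeq gene span given further on, which reaches 46743181 and 46719615, so that the stretch of Saa1 overlaps the span and that of Saa3 lies within it. Capitals mark letters that match TTGCNNAA (a C/EBP motif), GGNNNTTNCC (NF-kB) or TTCNNNGAA (STAT) on either strand. The motifs were chosen for their textbook link to acute phase genes, with earlier results of these data known.
Saa1, chr7:46743031-46743230, minus strand: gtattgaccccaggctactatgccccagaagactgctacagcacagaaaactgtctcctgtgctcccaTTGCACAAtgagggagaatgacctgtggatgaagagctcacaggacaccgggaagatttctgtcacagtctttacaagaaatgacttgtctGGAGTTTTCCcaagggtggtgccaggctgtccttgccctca
Saa2, chr7:46751583-46751782, plus strand: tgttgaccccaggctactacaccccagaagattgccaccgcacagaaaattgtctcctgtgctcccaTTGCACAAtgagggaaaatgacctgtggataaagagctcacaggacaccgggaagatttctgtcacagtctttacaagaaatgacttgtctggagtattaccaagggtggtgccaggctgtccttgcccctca
Saa3, chr7:46715727-46715926, minus strand: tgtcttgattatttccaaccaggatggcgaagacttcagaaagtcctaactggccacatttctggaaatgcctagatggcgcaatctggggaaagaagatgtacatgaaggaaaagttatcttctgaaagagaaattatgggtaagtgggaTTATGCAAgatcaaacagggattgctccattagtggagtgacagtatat
Chil1, chr1:134181906-134182105, plus strand: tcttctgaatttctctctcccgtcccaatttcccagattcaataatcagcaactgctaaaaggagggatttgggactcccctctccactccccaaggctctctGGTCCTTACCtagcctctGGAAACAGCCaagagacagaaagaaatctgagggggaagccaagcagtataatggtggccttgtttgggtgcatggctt
Bpifb1, chr2:154190568-154190767, plus strand: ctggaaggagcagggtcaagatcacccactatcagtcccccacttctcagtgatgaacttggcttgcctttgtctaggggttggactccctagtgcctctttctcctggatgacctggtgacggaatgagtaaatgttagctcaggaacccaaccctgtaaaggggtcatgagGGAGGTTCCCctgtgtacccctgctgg
The printed stretches of Saa1 and Saa2 were identical at 188 of 200 aligned bases. Both held TTGCACAA, 182 bases before the start in Saa1 and 183 bases before it in Saa2, and the stretch of Saa1 alone of these 2 held GGAGTTTTCC. Over the whole windows, the C/EBP letters were found in 6 of 10 windows, the NF-kB letters in 4 and the STAT letters in 1, with no overlap between motifs. Of 32851 mouse windows of the same length, 9.56% held the C/EBP letters, 13.0% the NF-kB letters and 7.02% the STAT letters. A match describes letters and does not show a binding site.

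Summed over the 10 genes, the level was 146 FPKM (sham) and 2592 FPKM (injured) in young mice and 270 FPKM (sham) and 13676 FPKM (injured) in adult mice. These sums made up 0.0296%, 0.486%, 0.0536% and 2.91% of all FPKM of the library. As deposited, all 10 genes were higher in the injured than in the sham library at both ages, although Orm1 was lower in adult mice after quantile normalization (log2 ratio -0.08), and 9 of the 10 were highest of all in adult injured cartilage, the exception being Orm1. Above 100 FPKM were 6 of the genes in adult injured cartilage and 3 in young injured cartilage, but 0 in either sham library. Chil1 alone gave 60.8% of the summed level of the 10 genes in young injured and 76.0% in adult injured cartilage.

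**Figure D1:**
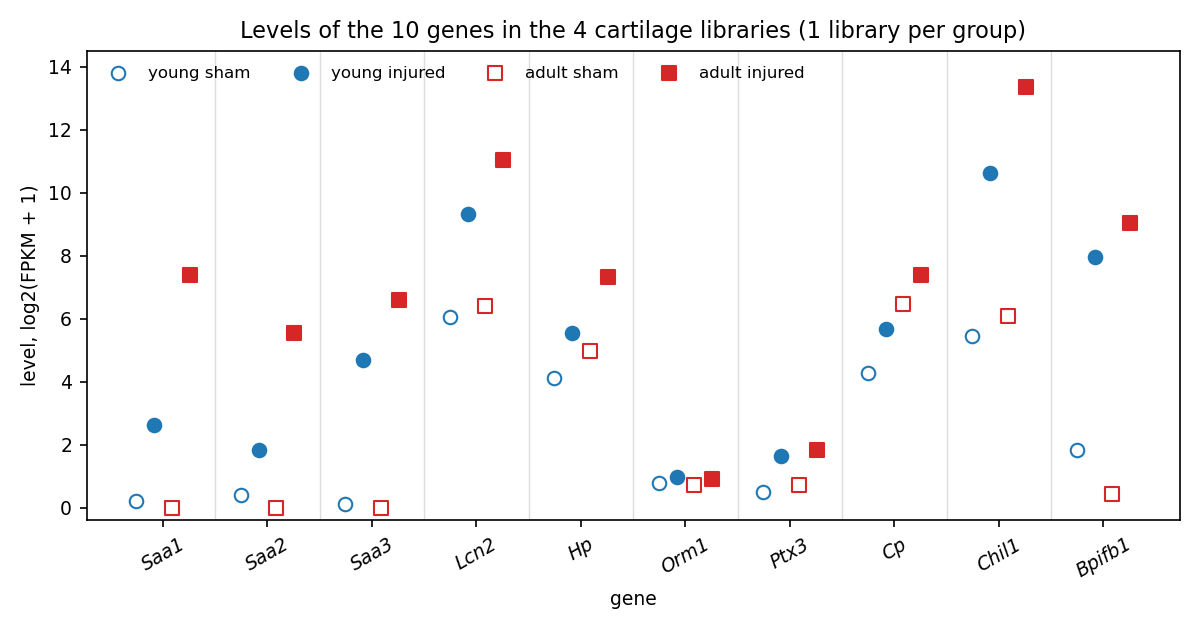
Level of each of the 10 genes, as log2(FPKM + 1), in young (circles) and adult (squares) mice, with open symbols for sham and filled symbols for injured cartilage, 1 library per group. The filled square is the highest point for 9 genes, and Orm1 stays below 1 FPKM in all 4 libraries, with its highest value at 0.984 FPKM.

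Ratios between libraries are log2 ratios of FPKM + 1, and a ratio of at least 2-fold was called. The added 1 FPKM makes the ratio of low genes too small. In young mice, 9 of the 10 genes were called higher after injury and 0 lower, where 4.57% of all genes were called higher and 1.27% lower. In adult mice, 8 were called higher and 0 lower, where 6.9% of all genes were called higher and 1.46% lower. The median ratio of the 10 genes was 1.92 (young) and 5.11 (adult), beside medians of 0.00 and 0.14 over all genes. The adult median includes Saa1, Saa2 and Saa3, which were listed at 0 in adult sham cartilage, and over the other 7 genes the medians were 1.42 (young) and 2.34 (adult). Between the sham libraries, Cp was called higher in adult mice and Bpifb1 lower, 1 gene each, where 2.66% of all genes were called higher and 10.6% lower.

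Between the injured libraries, 8 genes were called higher in adult mice and 0 lower, and Orm1 and Ptx3 were not called. Of all genes, 1.8% were called higher and 3.09% lower in that contrast, which was the one the genes were chosen on. The median was 1.75 over the 10 genes and -0.04 over all genes. The adult injury ratio exceeded the young one by at least 1 for Saa1, Saa2, Saa3, Lcn2, Chil1 and Bpifb1, 6 genes, and was lower by at least 1 for 0, against 4.6% and 1.64% of all genes. These comparisons share their libraries and are not separate evidence.

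The scaling of the libraries moved the balance of calls over all genes. Median-of-ratios scaling took the share of higher genes among those called from 82.5% to 65.6% in the adult injury comparison, from 20.02% to 49.1% between the sham libraries and from 73.7% to 48.1% in the difference between the ages. Between the injured libraries that share was 36.9% as deposited and 50.2% after FPKM were rescaled to the same sum. Over 10891 genes that reached 1 FPKM in each library, the median adult injury ratio was 0.23 as deposited and -0.00495 after median-of-ratios scaling, and the median sham ratio by age was -0.30 and 0.02. The 8 genes called higher between the injured libraries were called under every scaling and pseudocount.

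**Figure D2:**
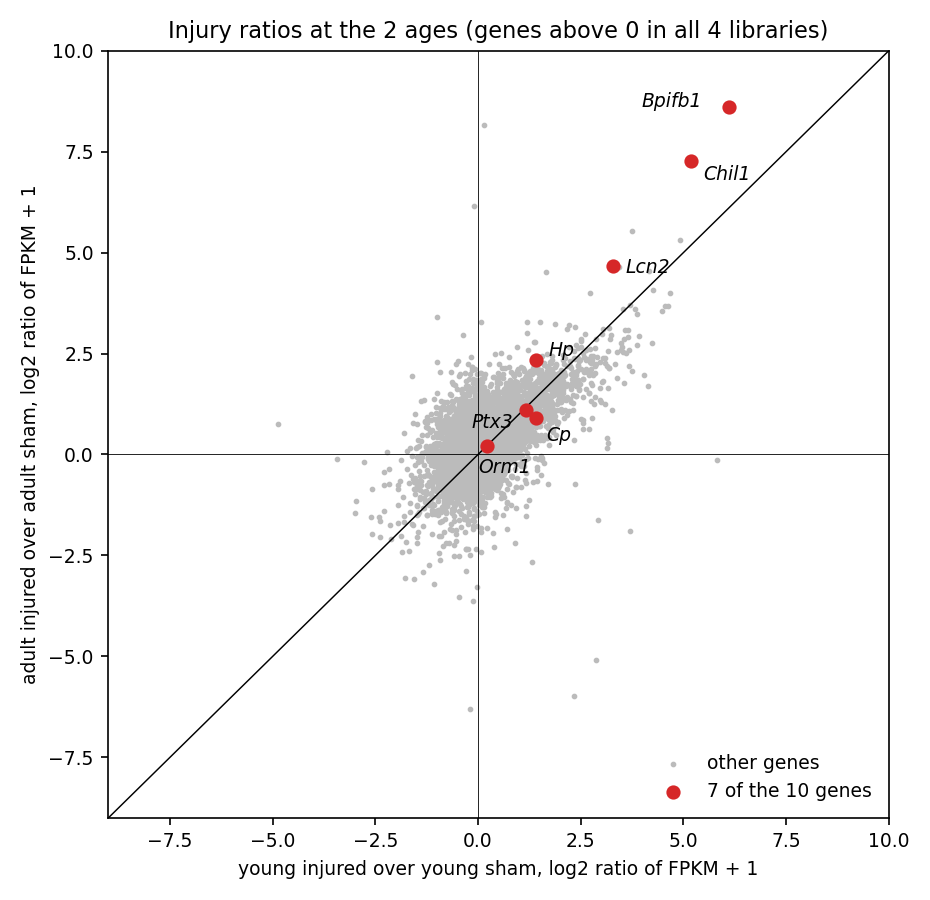
Injury ratio in adult mice (vertical axis) against that in young mice (horizontal axis), both as log2 ratios of FPKM + 1, for the 15335 genes above 0 in all 4 libraries (grey points) with 7 of the 10 genes in red; the diagonal marks equal ratios. Bpifb1 (6.11 in young, 8.61 in adult) and Chil1 (5.18, 7.27) lie at the upper right, Lcn2 and Hp lie above the diagonal, Cp lies below it, and Saa1, Saa2 and Saa3 are not drawn because they were listed at 0 in adult sham cartilage.

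Saa1 and Saa2 encode apolipoproteins that the liver adds to high-density lipoprotein in the acute phase, and Saa3 encodes a form that mouse macrophages and connective tissue cells can make. Saa1 (chr7:46740497-46743181) was at 0.157 FPKM (sham) and 5.13 FPKM (injured) in young mice and 0 (sham) and 164 FPKM (injured) in adult mice. Saa2 (chr7:46751833-46754313) measured 0.312, 2.56, 0 and 46.1 FPKM in that order. Saa3 (chr7:46711998-46719615) was at 0.0719, 24.6, 0 and 94.9 FPKM. All 3 genes were thus near or at 0 in both sham libraries and well above it in both injured ones. The young sham values are very low. In units of a step estimated from the lowest values of that library, Saa3 was at 1.05, Saa1 at 2.52 and Saa2 at 4.98, but only 54.2% of those values lay within 0.15 of a whole number of steps, so that these are not fragment counts.

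The summed level of Saa1 and Saa2 was 0.469 FPKM (sham) and 7.69 FPKM (injured) in young mice and 0 (sham) and 210 FPKM (injured) in adult mice. In young mice the injury ratio of the sum was 2.56 on the log2 scale of FPKM + 1. Taken singly, the young ratios of Saa1 (2.40) and Saa2 (1.44) were called, but with 5 FPKM added they were 0.97 and 0.51 and were not. No fold is given for adult mice, because the sham library listed both genes at 0. Between the injured libraries the sum was 27.4-fold higher in adult mice in plain FPKM, compared with 3.85-fold for Saa3.

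The 2 injured libraries also differed in which Saa gene was most abundant. The 3 genes and Saa4 summed to 32.4 FPKM in young injured cartilage, of which Saa3 made up 76.1%, Saa1 15.8% and Saa2 7.91%. In adult injured cartilage they summed to 305 FPKM, of which Saa1 made up 53.8%, Saa3 31.1% and Saa2 15.1%. The level of Saa3 was thus 3.20 times that of Saa1 and Saa2 together in young injured cartilage and 0.451 times in adult injured cartilage. A factor that scales a whole library leaves these shares as they are, and they rest on 1 library each. Saa4, the constitutive member of the family, was at 0.0363 FPKM in young injured and 0.0740 FPKM in adult injured cartilage and at 0 in both sham libraries.

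**Figure D3:**
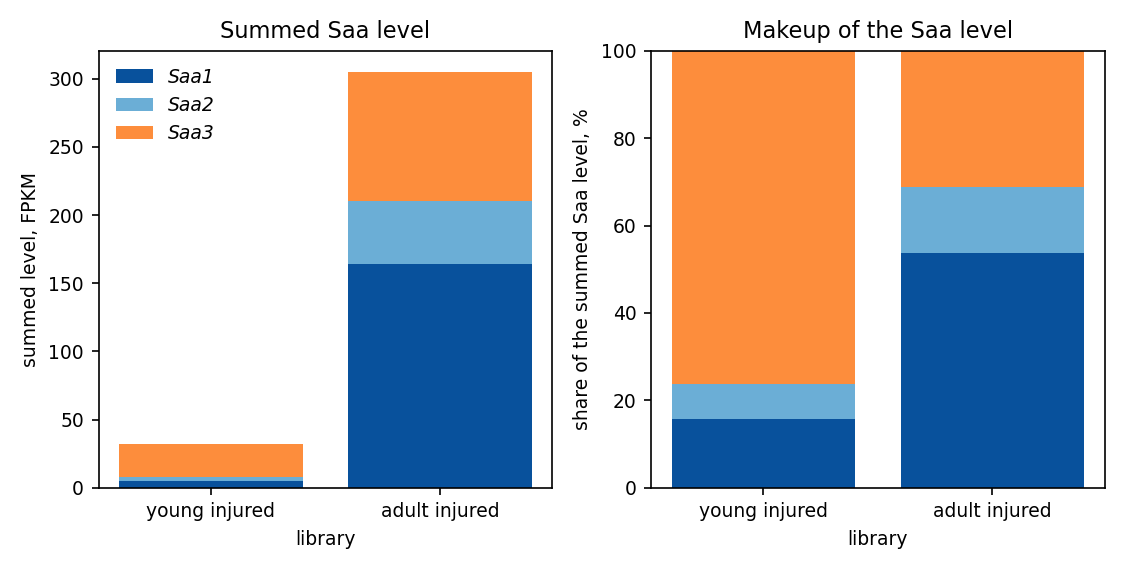
Summed FPKM of Saa1, Saa2 and Saa3 in the young and adult injured libraries (left, bars from 0) and the share of each gene in the summed Saa level in percent (right), 1 library per bar. Saa3 (orange) makes up 76.1% of the summed level in the young and 31.1% in the adult library, Saa4, which is not drawn, holds 0.112% and 0.0242% of it, and the sums with Saa4 are 32.4 FPKM (young) and 305 FPKM (adult).

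Lcn2, which encodes lipocalin 2, a binder of bacterial iron carriers stored in neutrophil granules and secreted by many stressed cells, had the second highest level of the 10 genes in both injured libraries. Lcn2 (chr2:32384637-32387739) was at 64.6 FPKM (sham) and 639 FPKM (injured) in young mice and 82.7 FPKM (sham) and 2117 FPKM (injured) in adult mice. Both injured libraries were far above the sham libraries. Between the sham libraries the log2 ratio, adult over young, was 0.35 as deposited, 0.74 after median-of-ratios scaling and 0.60 after quantile normalization, and was not called. The injury ratio was 3.29 (young) and 4.66 (adult), and the adult injured level was 3.31 times the young injured one. Among all genes of a library, Lcn2 ranked 958 by level in young sham and 23 in adult injured cartilage.

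Because neutrophils store lipocalin 2, its level was set against those of neutrophil genes within the same library. The ratio of Lcn2 to Ngp, a neutrophil granule gene, was 0.513 (sham) and 2.79 (injured) in young mice and 0.873 (sham) and 11.9 (injured) in adult mice. The ratio of Lcn2 to S100a9, an abundant neutrophil gene, was 0.129, 0.595, 0.119 and 2.58. Over all 14 neutrophil markers, the ratio of Lcn2 to the marker was higher in the injured than in the sham library for 14 in young mice and for 13 in adult mice. The exception was Stfa2l1, with adult ratios of 527 (sham) and 467 (injured) and an adult sham level of only 0.157 FPKM. Relative to Lyz2, a gene of macrophages and neutrophils, Lcn2 was at 0.456 (sham) and 0.503 (injured) in young mice and 0.451 (sham) and 1.94 (injured) in adult mice, so that this ratio was close to its sham value in young injured cartilage.

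Hp encodes haptoglobin, which binds free hemoglobin, and Cp encodes ceruloplasmin, a copper protein that oxidizes iron. Hp (chr8:109575128-109579172) was at 16.4 FPKM (sham) and 45.6 FPKM (injured) in young mice and 30.6 FPKM (sham) and 159 FPKM (injured) in adult mice, with injury ratios of 1.42 (young) and 2.34 (adult). Cp (chr3:19956933-20009750) measured 18.3, 50.1, 88.0 and 165 FPKM in that order. For Cp, adult sham cartilage was above young injured cartilage, so that its injured levels differed 3.30-fold between the ages while its sham levels differed 4.82-fold. Its injury ratio was 1.41 in young mice and 0.90 in adult mice, the latter not called, and it was the one called gene in young mice whose adult ratio fell short of 2-fold. After rescaling to the same sum the adult ratio of Cp was 1.00 and was called. Between the sham libraries the log2 ratio, adult over young, was 0.86 for Hp and 2.21 for Cp as deposited, and 1.23 and 2.58 after median-of-ratios scaling, by which Hp too was called.

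Ptx3 encodes a long pentraxin that tags microbes and is made at inflamed sites, and Orm1 encodes a plasma carrier protein of the liver. Ptx3 (chr3:66219887-66225806) was at 0.397 FPKM (sham) and 2.11 FPKM (injured) in young mice and 0.642 FPKM (sham) and 2.55 FPKM (injured) in adult mice. Its injury ratios were 1.16 (young) and 1.11 (adult), and the injured libraries differed by 0.19. Orm1 (chr4:63344556-63348163) was at 0.715, 0.984, 0.640 and 0.891 FPKM, with injury ratios of 0.21 at both ages, the adult one being -0.08 after quantile normalization. Ptx3 and Orm1 were the lowest of the 10 genes in both injured libraries. The injury ratios of Ptx3 lay near the 2-fold threshold, and its calls depended on the scale. Its ratio fell short of 2-fold in adult mice after median-of-ratios scaling (0.99) and quantile normalization (0.82), narrowly so in young mice after quantile normalization, and at both ages with 5 FPKM added (0.40 in young, 0.42 in adult mice).

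Chil1 was the most abundant of the 10 genes in both injured libraries. Chil1 (chr1:134182156-134190031) was at 42.4 FPKM (sham) and 1576 FPKM (injured) in young mice and 66.5 FPKM (sham) and 10398 FPKM (injured) in adult mice. Only 2 genes of the adult injured library had a higher level, and Chil1 held 2.21% of all its FPKM, against 0.295% in young injured cartilage. The injury ratio of Chil1 was 5.18 (young) and 7.27 (adult), and ranked 4 and 5 among all genes with 1 FPKM added. Between the injured libraries its level was 6.60-fold higher in adult mice, while between the sham libraries the log2 ratio, adult over young, was 0.64 as deposited and 1.02 after median-of-ratios scaling, which was called.

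The level of Chil1 was also set against genes of cartilage and of macrophages within each library. Relative to Col2a1, Chil1 was at 0.00454 (sham) and 0.199 (injured) in young mice and 0.0210 (sham) and 2.77 (injured) in adult mice. Relative to Comp, another cartilage matrix gene, it was at 0.0320, 0.794, 0.00924 and 2.26, so that its sham ratio was lower in adult than in young mice, the reverse of that to Col2a1. Col2a1 itself was lower and Comp higher in adult sham than in young sham cartilage. Relative to Lyz2, Chil1 was at 0.300, 1.24, 0.363 and 9.54. All 3 ratios were highest in adult injured cartilage, where Chil1 exceeded Col2a1 itself.

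Bpifb1, as a log2 ratio of FPKM + 1, had the highest injury ratio of all genes in young mice. Bpifb1 (chr2:154190818-154220343) was at 2.58 FPKM (sham) and 246 FPKM (injured) in young mice and 0.356 FPKM (sham) and 528 FPKM (injured) in adult mice. The injury ratio was 6.11 in young mice, where it ranked 1, and 8.61 in adult mice, where it ranked 2. These ranks depend on the amount added. With 0.1 FPKM added, the young ratio of Saa3 (7.17) was above that of Bpifb1 (6.52), and Saa1, listed at 0 in adult sham cartilage, was above Bpifb1 in adult mice. With 5 FPKM added, Chil1 was above Bpifb1 in both young (5.06 against 5.05) and adult mice (7.18 against 6.64). The sham libraries went the other way from the injured ones, with the adult sham level below the young one (log2 ratio -1.40) and the adult injured level 2.15-fold above the young one. With 5 FPKM added the sham ratio was -0.50 and was not called. Markers of epithelial cells, the best known source of the protein, were near 0. The 10 marker genes summed to between 0.529 and 0.801 FPKM in each library, none reached 1 FPKM, and Krt5, Krt14, Cldn4 and Scgb1a1 were at 0 in all 4 libraries.

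Among 18 relatives of the 10 genes, that is other chitinase-like, BPI-fold, pentraxin and ferroxidase genes, 15 were above 0, and 1 was called higher in young mice and 2 in adult mice after injury, with 0 lower at either age and medians of 0.08 (young) and 0.07 (adult). Of all genes 4.57% (young) and 6.9% (adult) were called higher. With 1 FPKM added, a gene can be called higher only if it reaches 1 FPKM in the injured library. Only 3 of the 15 did so in either injured library, so that the counts and medians of this list cannot be weighed against that share. The chitinase-like gene Chil3, a product of mouse macrophages and neutrophils, was at 29.1 FPKM (sham) and 44.7 FPKM (injured) in young mice and 24.7 FPKM (sham) and 51.1 FPKM (injured) in adult mice. The macrophage chitinase gene Chit1 was at 0.543, 5.12, 0.631 and 4.28 FPKM, and the neuronal pentraxin receptor gene Nptxr at 2.1, 2.34, 3.12 and 1.70 FPKM. The level of Chil1 relative to Chil3 was 1.46 (sham) and 35.3 (injured) in young mice and 2.69 (sham) and 203 (injured) in adult mice.

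Among 24 other acute phase genes, 19 were above 0, and 11 were called higher after injury at each age, with 0 called lower. Of all genes 4.57% (young) and 6.9% (adult) were called higher. The medians of the list were 1.07 (young) and 1.52 (adult). Crp, Apcs, Orm3, Fgb and Hamp, which in the mouse are products of the liver above all, were at 0 in all 4 libraries. Serpina3n, a protease inhibitor gene, was at 52.6 FPKM (sham) and 716 FPKM (injured) in young mice and 12.1 FPKM (sham) and 611 FPKM (injured) in adult mice, and so was not higher in adult than in young injured cartilage. The metallothionein gene Mt2 was at 4.32, 160, 12.5 and 530 FPKM, and Mt1 at 13.5, 168, 33.8 and 421 FPKM. Adult over young injured cartilage, 5 of the 19 were called higher and 2 lower (1.8% and 3.09% of all genes), with a median of 0.55. The 10 genes, with 8 called higher and a median of 1.75, were chosen on this contrast, so that the lists cannot be weighed against each other.

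Of the 9 cytokines that induce acute phase genes, 7 were above 0, and 3 were called higher in young injured cartilage and 5 in adult mice, with 0 lower and medians of 0.75 (young) and 1.07 (adult), against 4.57% and 6.9% of all genes called higher. Il1b, the main interleukin-1 gene of myeloid cells, was at 0.394 FPKM (sham) and 8.27 FPKM (injured) in young mice and 0.453 FPKM (sham) and 22.2 FPKM (injured) in adult mice. Il11, a cytokine of the interleukin-6 family made by connective tissue cells, was at 0.282, 1.16, 0.250 and 4.58 FPKM, and Tnf at 0.168, 2.02, 0.335 and 1.81 FPKM. Il17a and Il22 were at 0 in all 4 libraries. With 0.1 or 5 FPKM added in place of 1, the young count became 7 or 1, where 9.99% or 1.89% of all genes were called higher. The counts of this list thus rest on the scale.

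Of the 15 receptors and transcription factors that act between these cytokines and acute phase genes, 4 were called higher after injury in young mice and 5 in adult mice, with 0 lower and medians of 0.49 (young) and 0.83 (adult), against the same 4.57% and 6.9% of all genes. Stat3, the transcription factor of the interleukin-6 pathway, was at 24.6 FPKM (sham) and 35.0 FPKM (injured) in young mice and 11.1 FPKM (sham) and 48.6 FPKM (injured) in adult mice, with injury ratios of 0.49 and 2.03. Socs3, a target gene and brake of that pathway, had injury ratios of 1.80 (young) and 2.44 (adult), and Osmr, the oncostatin M receptor gene, of 2.11 and 1.97. The 2 others with a high level were Tnfrsf1a, a receptor of tumor necrosis factor, with ratios of 0.37 and 0.89, and Nfkbia, an inhibitor of NF-kB, with ratios of 0.47 and 0.08.

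Of the 18 receptors and partners of the proteins themselves, 7 were called higher after injury in young mice and 8 in adult mice, with 0 lower and medians of 0.72 (young) and 0.84 (adult), where 4.57% and 6.9% of all genes were called higher. Hmox1, which breaks down heme taken up with haptoglobin, was at 8.90 FPKM (sham) and 190 FPKM (injured) in young mice and 6.98 FPKM (sham) and 133 FPKM (injured) in adult mice. The ferritin gene Fth1 was at 928, 1916, 2819 and 5058 FPKM, with injury ratios of 1.05 and 0.84. Tnfaip6, whose protein binds Ptx3, had injury ratios of 1.39 and 2.79, and the endocytic receptor gene Lrp1 of 0.05 and 0.33.

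The marker lists of other cells were compared beside these levels. Of 12 hepatocyte markers, Alb, Ttr, Apob, Fgb and Tat were at 0 in all 4 libraries, and the summed level of the 12 was 2.1 FPKM (sham) and 0.825 FPKM (injured) in young mice and 226 FPKM (sham) and 25.6 FPKM (injured) in adult mice. Nearly all of the adult sums came from Serpina1a, at 225 FPKM in adult sham and 25.02 FPKM in adult injured cartilage. Ahsg reached at most 0.632 FPKM and Apoa1 at most 1.24 FPKM. The adult sums thus follow Serpina1a and were not read as a level of hepatocyte RNA. Whether the Serpina1a difference bears on other values was not tested.

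The 14 neutrophil markers summed to 1304 FPKM (sham) and 2755 FPKM (injured) in young mice and 1668 FPKM (sham) and 2180 FPKM (injured) in adult mice. In injured cartilage 10 of the 14 were lower in adult mice, with a median of -0.33, and 1 was called higher, where 1.8% of all genes were called higher and 3.09% lower. The 14 macrophage markers summed to 203, 1988, 322 and 1713 FPKM, and 9 of them were lower in adult than in young injured cartilage (median -0.27), with 0 called higher and 1 called lower against the same 1.8% and 3.09%.

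The 12 fibroblast markers summed to 4157 FPKM (sham) and 6240 FPKM (injured) in young mice and 5691 FPKM (sham) and 10736 FPKM (injured) in adult mice. Most of the adult injured sum came from Dcn, a proteoglycan gene of connective tissue (5555 FPKM), and Prg4, the lubricin gene of the joint surface (2658 FPKM). Thy1, Pdgfrb and Pdgfra stood at 7.75, 18.5 and 26.6 FPKM in that library. The sum was therefore not read as a level of fibroblast RNA. Of the 12, Prg4 (1 gene) was called higher in adult than in young injured cartilage, against 1.8% of all genes, with a median of 0.07. The 10 chondrocyte markers in the table summed to 15045, 13620, 11395 and 10205 FPKM, and 5 of them were called lower and 1 higher (Comp) in adult than in young injured cartilage, against 3.09% lower and 1.8% higher of all genes, with a median of -0.82. Endothelial markers summed to 18.2, 87.8, 20.2 and 74.9 FPKM. Whether these marker differences reflect cell content, and what part they have in the levels of the 10 genes, was not tested.

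**Figure D4:**
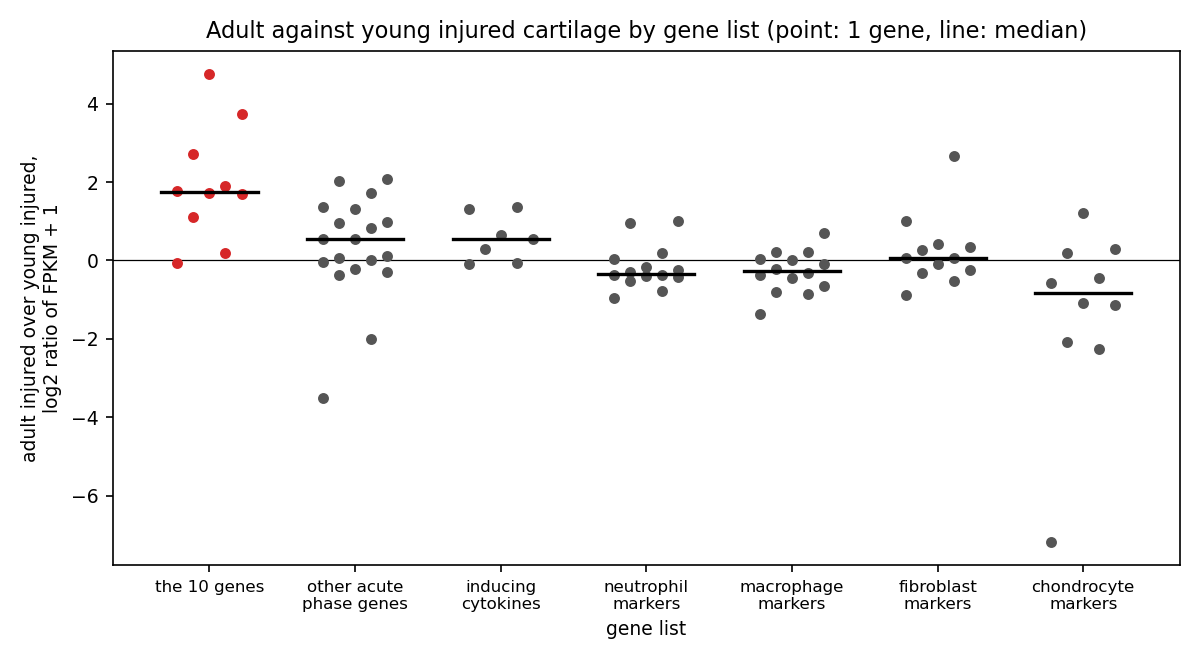
Log2 ratio of FPKM + 1, adult over young injured cartilage, for each gene above 0 (points) of the 10 genes and of 6 other lists, with the median of each list as a bar. The medians are 1.75 for the 10 genes, 0.55 for other acute phase genes, 0.54 for inducing cytokines, -0.33 for neutrophil, -0.27 for macrophage, 0.07 for fibroblast and -0.82 for chondrocyte markers; the 10 genes were chosen on this contrast.

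The genes with the profile most like those of Chil1, Bpifb1, the sum of Saa1 and Saa2, and Lcn2 were looked up among 9206 other genes that reached 5 FPKM. Likeness was the Euclidean distance between log2(FPKM + 1) values centred over the 4 libraries. Mt2 was nearest to Chil1 (distance 1.41), and the stromelysin gene Mmp3 (2.47) was also among its 3 nearest. Those of Bpifb1 included Serpina3n (2.90) and Mt2 (3.00). Mt2 was also nearest to the sum of Saa1 and Saa2 (2.44), followed by Rps27rt, a ribosomal protein retrogene at 5.02, 4.59, 6.65 and 541 FPKM (2.63), and the complement gene Cfb (2.80). Lcn2 had closer neighbours than these, with Cfb at 0.66, Il1b at 0.70 and Mt1 at 0.81. With 4 libraries, such distances describe only the order and spread of 4 values.

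Among the 10 genes themselves, the closest pairs were Orm1 with Ptx3 (0.97), Saa3 with Chil1 (1.01) and Hp with Cp (1.20). Saa3 was thus nearer to Chil1 than to Saa1 (2.13) or Saa2 (2.46). The widest distance was between Orm1 and Bpifb1 (7.26). The added 1 FPKM draws low genes such as Orm1 and Ptx3 together. In plain FPKM, the injured level of Orm1 was 1.38 (young) and 1.39 (adult) times the sham level. For Ptx3 it was 5.32 and 3.97 times. Saa3 was listed at 0 in adult sham cartilage, and no other added amount was tried for these distances.

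**Figure D5:**
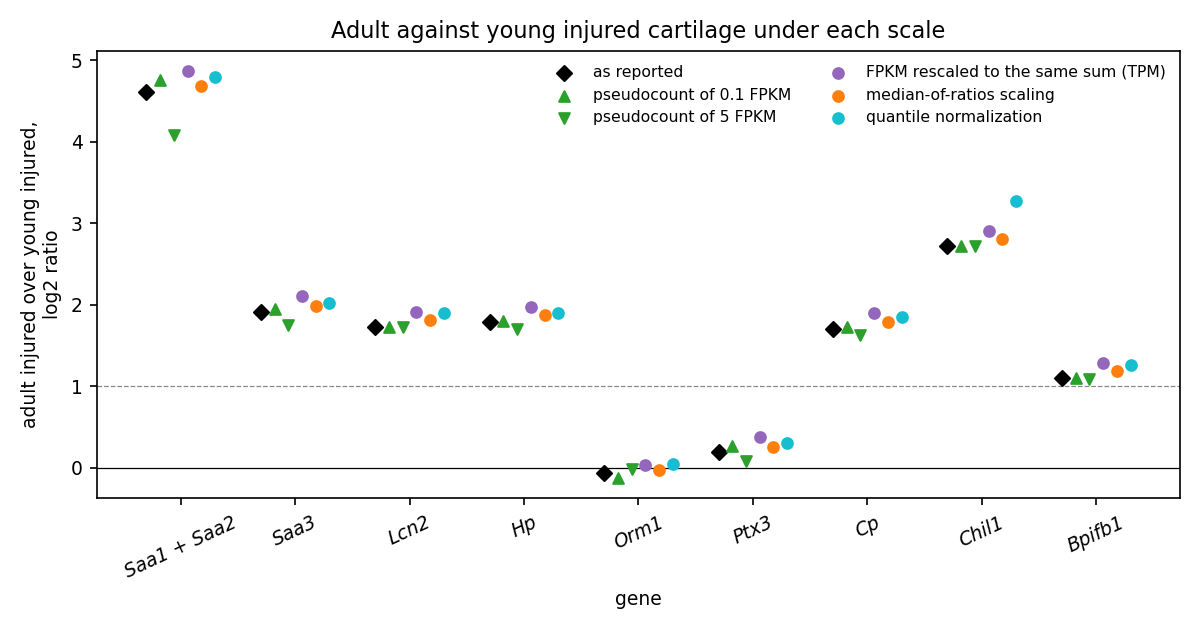
Log2 ratio, adult over young injured cartilage, for each gene as reported (black) and with another pseudocount (green), FPKM rescaled to the same sum (purple), median-of-ratios scaling (orange) or quantile normalization (cyan); the dashed line marks 2-fold. Saa1 + Saa2 lies between 4.09 and 4.86, Chil1 between 2.72 and 3.27 and Bpifb1 between 1.09 and 1.28, while Orm1 and Ptx3 stay below the dashed line on every scale and Orm1 lies on both sides of 0.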

How the data were processed

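Articular cartilage of 4 groups of mice (young sham, young injured, adult sham, adult injured) was sequenced, with 1 library per group, made by a strand-specific kit from poly-A RNA and read as paired ends of 100 bases. The authors deposited FPKM for 24532 genes on mm10, so that transcript length and mapped fragments are already divided out. The submitters' processing notes name HISAT2 2.1.0, HISAT, StringTie 1.3.4d, STAR and SAMtools without their roles.

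Groups came from the sample labels, and the column names give the library. For every gene, log2 ratios of FPKM + 1 were taken, and a ratio of at least 2-fold was called among the 18181 genes above 0 in at least 1 library. No test across samples is possible with 1 library per group. The 10 genes, the gene lists and the motifs were chosen with earlier results of these data known. Genes were named by a rule, which took all 10 genes, the 3 genes of each list with the highest FPKM, the 2 with the largest injury ratio and the 3 nearest profiles of 4 entries (marker genes only where a result turns on them). Among the nearest profiles, 1 gene is not reported here. Genes at 0 or named beside a count were chosen after their values were seen. Alternatives were a pseudocount of 0.1 or 5 FPKM, FPKM rescaled to the same sum (TPM), median-of-ratios scaling, quantile normalization, at least 1 FPKM in 1 library, thresholds of 1.5-fold and 3-fold, and Saa1 and Saa2 summed.

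Fragment counts were not analysed here. The FPKM of all genes summed to 469939 to 533468 per library. Low values of FPKM times transcript length lay partly near multiples of a step, which would mean 25700000 to 30800000 fragments per library if 1 step were 1 fragment, but only 53.9 to 55.1% of the values were within 0.15 of a step, so that whole fragments were not recovered. Coordinates and upstream sequence came from RefSeq (GRCm38.p6) and transcripts from GENCODE M21. Scripts were tested on simulated data and run in Python 3.11.15 (numpy 2.4.6, pandas 2.3.3, matplotlib 3.10.9).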

Additional observations from a re-analysis of the deposited data

Results flagged for a closer look

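Serpina1a, a hepatocyte marker, had an injury log2 ratio of 0.0664 in young mice, where it was at 0 in sham and 0.0471 FPKM in injured cartilage, and of -3.12 in adult mice, where it was at 225 FPKM in sham and 25.02 FPKM in injured cartilage. Serpina1a has near-identical copies in the mouse, between which reads can be split. The chondrocyte marker Col9a1 had an injury log2 ratio of -0.47 in young mice and of 1.95 in adult mice. Both were picked out because the ratios had opposite signs at the 2 ages and at least 1 of them passed 2-fold. The young ratio of Serpina1a rests on values at or near 0, and with 1 library per group the difference between the ages was not tested.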

How the results depend on the processing

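Among the counts and sums, 244 values remained within 1.5 times the reported count or on the same side of 2-fold, 35 counts moved further and 1 ratio crossed the threshold, and no called ratio changed sign. Orm1, not called on any scale, took both signs with the scale in each comparison other than injury in young mice, and its adult injury ratio was 0.21 as reported and -0.08 after quantile normalization. Of 295 single ratios of the 10 genes, 280 kept their side of the threshold, 8 fell short of it and 7 newly passed it. The 8 genes called higher in adult than in young injured cartilage were called on every scale, and 7 at 3-fold (0.528% of all genes). In young mice 5 of the 10 genes passed 3-fold after injury (2.02% of all genes). Between the sham libraries, the genes called higher in adult mice were 3 after median-of-ratios scaling (5.35% of all genes) and at 1.5-fold (6.54%) and 2 after quantile normalization (5.04%), in place of 1 (2.66%). Those called lower were 3 with a pseudocount of 0.1 (21.1% of all genes), and 0 with a pseudocount of 5 (3.69%) or at 3-fold (2.78%). The log2 ratio of Saa1 and Saa2 summed, adult over young sham, was -0.56 as reported and -2.51 with a pseudocount of 0.1, which rests on a sum of 0.469 FPKM against 0. For other acute phase genes, the young injury count was 6 with a pseudocount of 5 (1.89% of all genes) and at 3-fold (2.02%), and 1 gene was lower at 1.5-fold (4.81%). For cytokines it was 7 with a pseudocount of 0.1 (9.99% of all genes), 1 with 5 (1.89%) and 1 at 3-fold (2.02%) in young mice. In adult mice the cytokine count was 1 with a pseudocount of 5 (2.39%), 3 after quantile normalization (3.99%) and 2 at 3-fold (2.43%). For receptors and transcription factors it was 2 in young mice with a pseudocount of 5 (1.89% of all genes) and at 3-fold (2.02%). At 1.5-fold it was 7 in young (9.5%) and 9 in adult mice (17.9%). For partners the young and adult counts were 4 and 5 with a pseudocount of 5 (1.89% and 2.39% of all genes) and 3 and 4 at 3-fold (2.02% and 2.43%). In young mice 1 partner was lower at 1.5-fold (4.81%). For relatives, the young count of higher genes was 4 with a pseudocount of 0.1 (9.99% of all genes), 0 with 5 (1.89%) and 2 at 1.5-fold (9.5%). The adult count was 4 with a pseudocount of 0.1 (15.9%) and 0 with 5 (2.39%). It was 1 after median-of-ratios scaling (4.76%), after quantile normalization (3.99%) and at 3-fold (2.43%). Called lower were 1 relative with a pseudocount of 0.1 in young mice (4.22%) and 1 at 1.5-fold in adult mice (3.96%). The causes were not tested beyond the change of scale itself. Orm1 did not reach 1 FPKM in any library and dropped out under the filter. No paired analysis was possible because each group had 1 library. Leaving out a replicate was likewise not possible. Saa1, Saa2 and Saa3 were at 5 steps or less in sham cartilage. Orm1 in all 4 libraries, Ptx3 in young sham and Bpifb1 in adult sham cartilage were at 20 steps or less. Depth may limit these values, but the steps are not fragment counts and this was not tested.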
